A study of Homo sapiens with 18 samples.

Results

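The regions described here are 650 m6A peaks that lie in 329 genes whose annotation merges into 1 exon. They were chosen by position from the 39708 deposited peaks of LoVo cells, an established line of colorectal cancer cells. All peaks called in WT cells were taken, together with peaks called in K513R cells that overlapped no WT peak on the same strand, if they spanned at most 5000 bases. Each was given to the gene with which it shared the most exonic bases on its strand, and it was kept if all exons of that gene in the deposited gene table merged into 1. This left 650 of 25342 peaks (2.56%), of which 603 came from the WT list and 47 from the K513R list. Beyond the authors' peak calls, the rule used no IP or input count. The study compared LoVo cells with METTL3 WT against LoVo cells with METTL3 K513R, a lysine-to-arginine change in this m6A methyltransferase, and the labels name no treatment or further allele. Each genotype had 3 input and 3 IP libraries of MeRIP-seq, made from fragmented poly(A) RNA before and after pull-down with an antibody to m6A, and 3 RNA-seq libraries of total RNA depleted of rRNA. The sources used here do not give how the K513R cells were made or whether they are 1 clone. Nothing in the labels says that replicates came from separate cultures, so each p-value reflects only how far these libraries spread, and that spread may be technical.

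Most human genes are spliced, and the protein complex that stays on mRNA at exon junctions is known to keep m6A away from nearby sequence, which leaves long exons and last exons as the usual places of methylation. Genes without introns have no such junctions. Many of them code for transcription factors, signalling proteins and histones. METTL3, with its partner METTL14, methylates adenosine within the DRACH sequence inside mRNA. The antibody also binds m6Am, the modified first adenosine next to the cap, which another enzyme makes.

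The peaks rest on moderate counts. Counts inside all deposited peaks summed to 11076729 to 12491969 in the WT IP libraries, 5905811 to 9198650 in the K513R IP libraries, 5025027 to 6200264 in the WT inputs and 2625446 to 4847236 in the K513R inputs. The median peak of a single-exon gene had a mean of 9.50 input counts per library, against 8.33 for peaks of genes with 2 or more exons. RNA-seq libraries held 47105235 to 53795212 gene counts. Cell type markers, in CPM (counts scaled to library size) of RNA-seq, moved with the genotype. The epithelial keratins KRT8 and KRT18 stood at 7369 to 11275 and 2081 to 3191 CPM in WT against 1649 to 2022 and 163 to 221 CPM in K513R. EPCAM was at 204 to 258 against 137 to 152 CPM and CDH1 at 80.2 to 94.9 against 162 to 172 CPM. The intestinal markers CDX2 and VIL1 were low in both, at 10.4 to 11.3 and 5.32 to 5.74 CPM in WT against 1.78 to 2.76 and 1.68 to 2.28 CPM in K513R. Of the markers of other cells 0 of 6 was at 0. The leukocyte marker CD14 stood at 0.0849 to 0.424 CPM in WT and 2.29 to 3.37 CPM in K513R, and PTPRC, CD3E and PECAM1 at 0.552 to 3.29 CPM and COL1A1 and COL3A1 at 9.04 to 25.4 CPM over both. The part of these marker differences in the results below was not tested. METTL3 itself was at 39.5 to 41.9 CPM in WT and 43.9 to 54.7 CPM in K513R libraries, a level that does not check an amino acid change.

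Some of these peaks began at or near the annotated first base of the RNA, and the results below turn on them. The first 30 bases of 7 genes with a called peak at the start are shown, 5′ to 3′ on the gene's strand, from RefSeq (GRCh38.p14), with the annotated first base in capitals. The first 5 had a peak that was higher in K513R and the last 2 a peak that was lower. Of the genes with a higher start peak that are not shown, RHOB, TBCC, SFN, MIEN1 and SELENOH began with A. FAU and CCDC85B began with C, and PET100 and UQCRQ with G. Of those with a lower one, MRFAP1L1 began with G and CHMP1B with C.
DOLK: Gccaagatggcgaggcccaaagaggtgagg
JUND: Aggagccgccgccagtggagggccgggcgc
FAM43A: Aaggatgtgaggcaggcgagccggacgccg
SEPHS2: Aggaagattgtgcatgccgtgggtctgacg
H1-2: Atcggcgctttgccacttgtacccgagttt
PCBP1: Agaccgccgaggctgccgccggagtcgcca
C19orf73: Gatgatgtcacctggagcgagtagcgcgcg
These lie at chr9:128947574-128947603 (minus strand), chr19:18281593-18281622 (minus), chr3:194685883-194685912 (plus), chr16:30445845-30445874 (minus), chr6:26056441-26056470 (minus), chr2:70087477-70087506 (plus) and chr19:49119114-49119143 (minus). Each stretch is exonic, the start of the annotated transcript. Of the 54 single-exon genes with a peak at their RefSeq start, 32 (59.3%) began with A, 17 with G, 5 with C and 0 with T. The RefSeq entries of SETSIP and OR2W3 begin with ATG, so their A may belong to a start codon and not be the first base of the RNA. The HDDC3 peak lies mostly upstream of its RefSeq start. The first base was A in 52.8% of the 1819 multi-exon genes with such a peak and in 44.4% of all 35116 RefSeq start windows. The letters GGAC, a frequent core of the DRACH sequence, were searched on the gene's strand in the first 50 bases. They stood in 7 of the 54 genes (13.0%), in 22.0% of the multi-exon genes with a start peak and in 18.9% of all windows. The longer GGACT, which contains GGAC, stood in 2 of the 54. The sequences of the peaks themselves were not read here.

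The 329 genes are of several kinds, and not all are intronless. Protein-coding genes with 1 exon in every listed transcript numbered 180 and held 393 of the 650 peaks. Another 71 coding genes, with 155 peaks, have introns in some listed transcripts that the exon of another transcript bridges, among them FAU, JUND, TUG1 and ARF6. The rest were 35 genes without a symbol (52 peaks), 15 mitochondrially encoded genes (18), 11 pseudogenes (13), 9 histone genes (11) and 8 small RNA genes (8). Of the 650 peaks, 635 lay wholly inside the exon of their gene and 14 had under 50% of their length there. In 134 the gene shared exonic bases with another gene on the same strand, and in 64 another gene had as many exonic bases in common with the peak, so the gene of these peaks is uncertain. Opposite-strand exons overlapped the gene of 217 peaks. There were 161 genes with 1 peak, 81 with 2 and 87 with 3 or more. Some peaks overlap and share counts, and 610 of the 650 remained when those that overlap a longer one were left out. Counts of peaks below include the overlapping ones.

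Peaks of single-exon genes were wider than those of multi-exon genes (median 298.5 against 241 bases) and had a median fold enrichment of 7.27 against 5 in the authors' deposited table. Among single-exon coding genes with at least 1 CPM in WT RNA-seq, 152 of 221 (68.8%) carried a peak, against 9628 of 12710 multi-exon coding genes (75.8%). At matched exonic length the order depended on the length and, in the shortest group, on the RNA level. Between 1500 and 3000 exonic bases, 62 of 73 single-exon genes (84.9%) and 1249 of 1955 multi-exon genes (63.9%) had a peak. Over 3000 bases, the values were 66 of 77 (85.7%) and 8155 of 10344 (78.8%). Up to 1500 bases, they were 24 of 71 (33.8%) and 224 of 411 (54.5%). In this short group, genes of at least 20 CPM had a peak in 10 of 43 single-exon (23.3%) and 86 of 135 multi-exon cases (63.7%). At 5 to 20 CPM it was 3 of 7 and 72 of 133, and at 1 to 5 CPM 11 of 21 (52.4%) and 66 of 143 (46.2%). Genes of the histone list are among these single-exon coding genes. Of the 74 single-exon genes in the histone list 9 had a peak. Most of that list are replication-dependent histones, whose mRNAs end without a poly(A) tail. Along the 180 intronless coding genes the midpoints of the 393 peaks were spread over the whole length. From the 5′ to the 3′ end, successive stretches of 20% of the gene held 90, 102, 83, 72 and 46 of them.

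Enrichment was expressed as log2 of IP over input, each as CPM plus 0.5, in the input and IP library of the same number. CPM are scaled to the counts in peaks, so a negative value means weaker enrichment than is usual for these peaks. Of the 650 peaks, 422 had enough counts to be tested. Their median enrichment was 0.50, 0.54 and 0.51 in the 3 WT pairs and 0.17, 0.23 and 0.37 in the 3 K513R pairs. All 6 values lay above the medians of multi-exon peaks, which were 0.10, 0.14 and 0.11 in WT and 0.01, 0.01 and 0.01 in K513R. The difference between the medians of single-exon and other peaks was 0.39, 0.40 and 0.40 in WT and 0.16, 0.23 and 0.36 in K513R, a mean of 0.32 (exact paired permutation test over 6 pairs, two-sided p = 0.03125, the smallest it can give). It was 0.28 against multi-exon peaks that lie within 1 exon, and 0.17 when only peaks with a deposited fold enrichment of at least the median were used. The 3 K513R differences lay below the 3 WT differences by 0.15 on average (exact permutation test, two-sided p = 0.1, the smallest that 3 against 3 allow). Leaving out any pair gave a mean difference of single-exon from other peaks of 0.31 to 0.36, where the smallest possible p is 0.0625.

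The strongest WT enrichment among peaks with at least 50 mean input counts was found in MT-ATP8, a subunit of the mitochondrial ATP synthase (1.97, 2.17 and 2.10 in WT, 2.48, 2.72 and 3.06 in K513R). Next came CCDC85B, whose 3′ peak had 1.91, 2.02 and 2.03 in WT and 1.46, 1.07 and 1.15 in K513R. The peak of SOX4, a developmental transcription factor, stood at 2.03, 1.97 and 1.93 in WT and 1.54, 1.75 and 1.69 in K513R. HEXIM1, which holds the elongation factor P-TEFb inactive, had 1.84, 1.78 and 1.81 in WT and 1.18, 1.16 and 1.78 in K513R in the third of its 4 peaks. The immediate early gene IER5 (1.86, 1.77 and 1.79 in WT, 1.04, 1.30 and 1.05 in K513R) and PNMA1, a Gag-like protein (1.57, 1.72 and 1.72 in WT, 1.06, 0.95 and 0.99 in K513R), completed the set. These 6 were chosen by their WT level, so a lower K513R value in them is partly fixed by the choice. The K513R values lay below the WT values without overlap in CCDC85B, SOX4, IER5 and PNMA1, lay above them without overlap in MT-ATP8, and in HEXIM1 overlapped the WT range through K513R replicate 3. Such separation was found in 43.8% of all tested peaks, and of these 6 peaks CCDC85B and IER5 were called, while PNMA1, SOX4, HEXIM1 and MT-ATP8 were not (edgeR adjusted p = 0.0694, 0.298, 0.232 and 0.237).

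Between genotypes, 34 of the 422 tested peaks were higher in K513R relative to input and 69 were lower (24.4% called), while 319 were not called (edgeR interaction of genotype and IP, Benjamini-Hochberg adjusted over 27252 peaks). Of all tested peaks in the series 22.5% were called, 12.9% higher and 9.58% lower, so the called share of single-exon genes was near the background. The series also holds the K513R peaks that overlap a WT peak, which the rule left out, so its split is not a like comparison. Of the tested ones among the 25342 peaks of the rule, 10.8% were higher and 11.4% lower. Among peaks of multi-exon genes of the same size range 10.9% were higher and 11.3% lower. Single-exon genes, with 8.06% higher and 16.4% lower, leaned lower than these. The median log2 fold change was -0.37 for single-exon genes, -0.20 for multi-exon genes and -0.05 for the whole table. The 3 values of one genotype lay apart from those of the other in 187 of the 422 (44.3%), against 43.8% in the whole table. With scaling to library size only, the median of the whole table moved to -0.26 and that of single-exon genes to -0.58, and 18 peaks were higher and 105 lower. The list of origin was used to choose the peaks, and a K513R peak was taken only where no WT peak was called, so the direction by list is a description. All 69 lower peaks came from the WT list, which also gave 21 higher ones out of 398 tested. These are 17.3% lower and 5.28% higher, against 12.4% and 6.61% for WT-list peaks of multi-exon genes. Of the 24 tested peaks of the K513R list, 13 were higher and 0 lower (0 also at an unadjusted p under 0.05 and by DESeq2), and in multi-exon genes 748 of 1412 were higher and 0 lower. The counts also depended on single replicates. The number of higher peaks was 11, 12 and 12 without WT replicate 1, 2 and 3 and 20 without K513R replicate 2, and the number of lower peaks was 22, 32, 26 and 40.

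Position within the gene separated the directions. A RefSeq start is given for the genes of 462 of the 650 peaks, and 56 peaks in 54 genes covered it (12.1% of the 462, against 9.37% of multi-exon peaks). Of 47 tested start peaks, 15 in 14 genes were higher and 4 in 4 genes lower, with a median log2 fold change of 0.44. PET100 has overlapping start peaks that share counts, both of them higher. Of the other 375 tested peaks, 19 were higher and 65 lower, with a median of -0.44. Among the 252 of them whose gene has a RefSeq start, 6 were higher and 51 lower, with a median of -0.54. Peaks of multi-exon genes with a RefSeq start showed the same order, with 35.3% higher and 0.817% lower at a start and 7.94% higher and 12.4% lower elsewhere. Within the WT list alone, 10 of 40 tested single-exon start peaks were higher and 4 lower (median 0.32). Elsewhere in that list 11 were higher and 65 lower of 358 (median -0.48). Of 7 tested start peaks from the K513R list, kept only where no WT peak was called, 5 were higher. In each library, the median enrichment of start peaks minus that of the other single-exon peaks was -0.44, -0.61 and -0.37 in WT and 0.11, 0.37 and 0.38 in K513R. Start peaks were thus the weaker ones in all 3 WT pairs and the stronger ones in all 3 K513R pairs. The 2 genotypes differed by 0.76 (exact permutation test, two-sided p = 0.1, the smallest possible), and by 0.59 with peaks of the WT list only. For multi-exon genes the same difference was 0.92. With library-size scaling the medians were 0.22 at starts and -0.66 elsewhere. The count of 15 fell to 8, 9 and 8 without WT replicate 1, 2 and 3, and the count of 65 to 21, 31, 24 and 37 without WT replicate 1, 2 and 3 and K513R replicate 2. The 19 higher peaks elsewhere became 3, 3, 4 and 10 without the same replicates, and 33 with input and IP entered as pairs. The 4 lower start peaks became 1, 1 and 2 without WT replicate 1, 2 and 3.

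**Figure D1:**
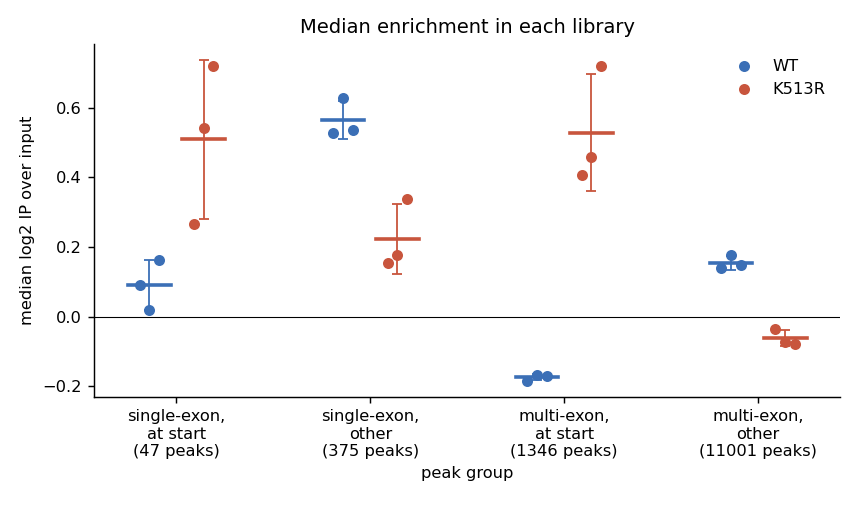
Median log2 IP over input (y axis) of 4 groups of tested peaks (x axis), 1 point per pair of libraries, WT in blue and K513R in red, with the mean as a bar and the SD over 3 pairs as an error bar. Single-exon peaks at a RefSeq start lay above 0.26 in all 3 K513R pairs and below 0.17 in all 3 WT pairs, and the other single-exon peaks lay in the opposite order.

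The change also ran with distance from the gene's start. Peaks whose 5′ edge lay upstream of it or at most 50 bases after it had a median of 0.34, with 23 of 89 higher and 9 lower. This group includes peaks that begin far upstream of a small gene, such as the higher peak of ENSG00000238390. From 51 to 500 bases the median was -0.19 (5 higher and 9 lower of 68), from 501 to 1000 bases -0.63 (1 and 23 of 97), from 1001 to 2000 bases -0.47 (2 and 17 of 94) and farther on -0.58 (3 and 11 of 74). In the intronless coding genes alone, peaks with their midpoint beyond the first 20% of the gene had 2 higher and 34 lower calls of 169 tested. The shares were 12.9% and 9.58% of all tested peaks, and 10.8% and 11.4% of the tested peaks of the rule.

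**Figure D2:**
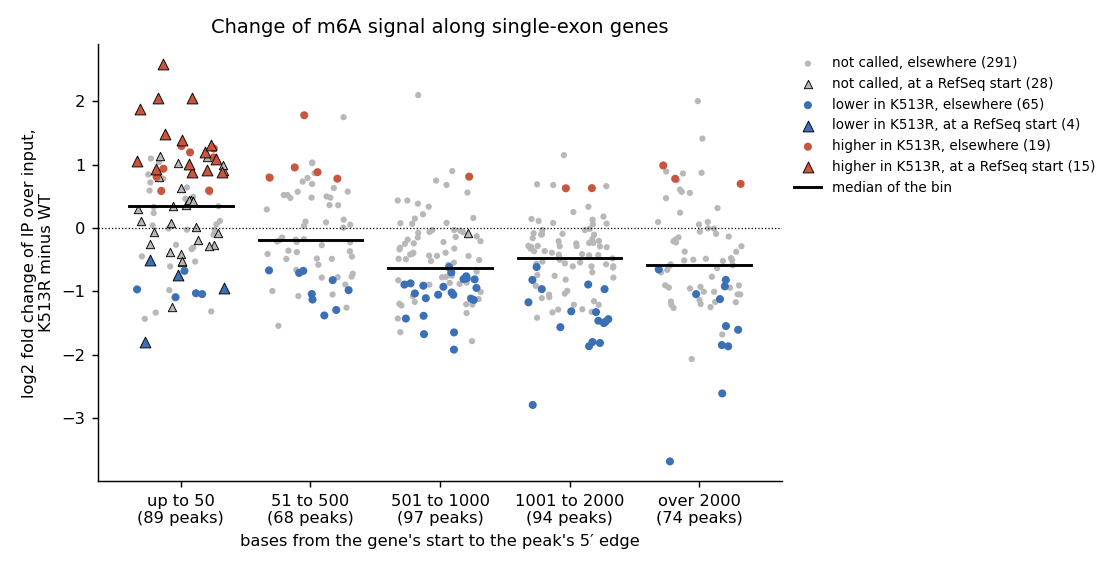
Log2 fold change of IP over input, K513R minus WT (y axis), of 422 tested peaks by the distance from the gene's start to their 5′ edge in bases (x axis, 5 bins, points spread sideways at random). Triangles cover a RefSeq start, circles do not, red is higher, blue lower, grey not called, and black bars are the medians, 0.34 in the first bin and -0.19 to -0.63 in the others.

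Start peaks and other peaks were also compared within genes. There were 33 genes with a tested start peak and at least 1 other tested peak, and in 29 of them the log2 fold change of the start peak lay above the median of the others, by a median of 0.90 over the 33. The start peak was above 0 and the others below 0 in 18 genes, both were below 0 in 11 and both above 0 in 3, and in 1 the order was the reverse. In RHOB, an endosomal small GTPase, the start peak had 2.06 and the median of the other 2 peaks was -1.52. JUND, a subunit of the AP-1 transcription factor, had 2.05 and -1.04. DOLK, the kinase that makes dolichyl phosphate for glycosylation, had 2.59 and -0.41, and its other peak was not called (edgeR adjusted p = 0.292). The start peaks of DOLK, RHOB, ARF6 and KBTBD6 came from the K513R list, where a peak was kept only if no WT peak was called. The differences in these genes (3.00, 3.57, 1.84 and 1.93) are thus partly fixed by the choice. The 4 genes in which the start peak did not lie above were CHMP1B, EXOC8, IRF2BP1 and ITPRIPL2. The IP and input counts behind the ratio were also compared separately. In the 15 higher start peaks, the IP CPM were higher in K513R in 15 of 15 (median log2 difference 1.07) and the input CPM in 7 of 15 (median -0.02). In the 19 higher peaks elsewhere, the IP CPM were higher in 17 (median 0.33) and the input CPM in 3 (median -0.54). In the 69 lower peaks, the IP CPM were higher in 7 (median -0.55) and the input CPM in 60 (median 0.49). These peaks were chosen by their call, so the IP and input directions in them are partly fixed by the choice. Over all 47 tested start peaks, the IP CPM were higher in 37 (median 0.51) and the input CPM in 31 (median 0.29). Over all 375 tested peaks elsewhere, the IP CPM were higher in 173 (median -0.05) and the input CPM in 262 (median 0.26).

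**Figure D3:**
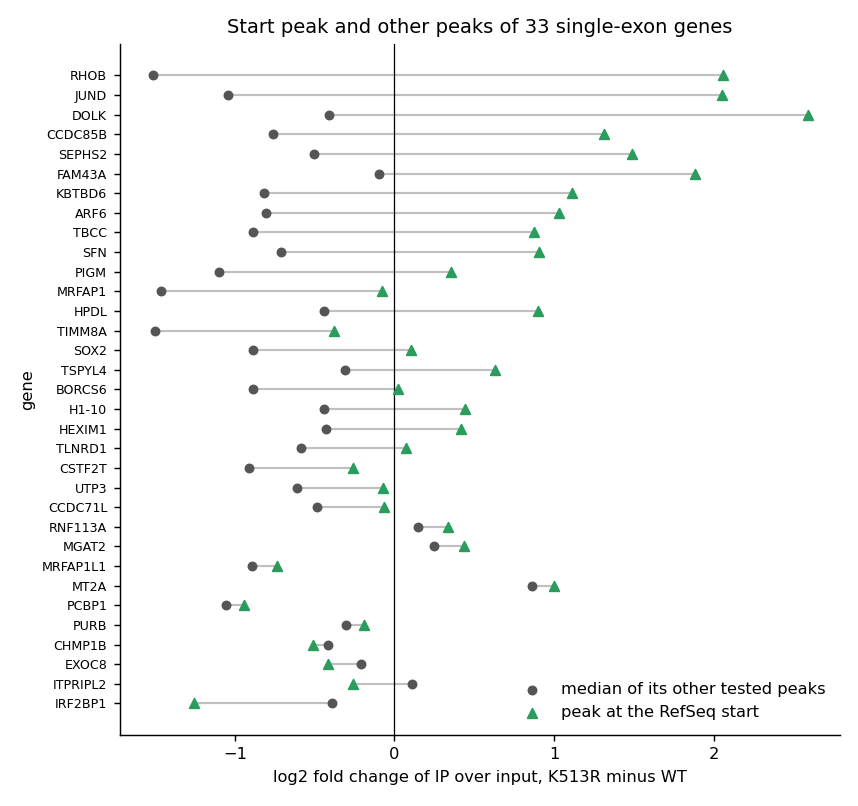
Log2 fold change of IP over input, K513R minus WT (x axis), for 33 genes (y axis), with the peak at the RefSeq start as a green triangle and the median of the gene's other tested peaks as a grey circle. The triangle lies to the right in 29 genes and to the left in CHMP1B, EXOC8, IRF2BP1 and ITPRIPL2.

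Of the 8 largest called rises in K513R whose genotypes did not overlap, 7 lay at a RefSeq start. The DOLK peak (chr9:128947485-128947603, minus strand, at the sequence shown above) had -1.69, -1.75 and -1.54 in WT and -0.17, 0.79 and 0.67 in K513R, a change of 2.59 ± 0.46 on the log2 scale (SE, edgeR adjusted p = 0.00141). In RHOB the values were -0.70, -0.94 and -0.77 against 0.68, 1.51 and 0.72, a change of 2.06 ± 0.56 (edgeR adjusted p = 0.0133). Both were below the usual enrichment in every WT pair. Both also came from the K513R list, where a peak was kept only if no WT peak was called. Their low WT values are thus partly fixed by the choice. In JUND (chr19:18281533-18281622, minus) they were -0.06, -0.12 and 0.25 against 1.06, 1.78 and 2.44, a change of 2.05 ± 0.62 (edgeR adjusted p = 0.0227). FAM43A (chr3:194685883-194686091, plus) had 1.19, 0.78 and 1.46 against 2.61, 2.94 and 2.93, a change of 1.88 ± 0.43 (edgeR adjusted p = 0.00518). SEPHS2, which makes selenophosphate for selenocysteine (chr16:30445635-30445874, minus), had 0.86, 0.33 and 0.62 against 2.39, 1.42 and 1.92 (log2 fold change 1.49, edgeR adjusted p = 0.0282). In these 3 genes, whose peaks came from the WT list, the enrichment was already near or above the usual level in WT. It was higher still in K513R. FAU, which codes for a ribosomal protein fused to a ubiquitin-like protein (chr11:65121999-65122177, minus), rose by 1.38 and CCDC85B (chr11:65890673-65890790, plus) by 1.31 on the log2 scale. CCDC85B stood at 0.14, -0.19 and 0.28 in WT and 1.33, 1.34 and 1.5 in K513R. The 8th rise, 1.78 in ENSG00000268713 (chr19:57261558-57262338, plus), is of uncertain gene, since ZNF805 covers 99.3% of that exon. The calls in DOLK, FAM43A and CCDC85B held in all 6 fits that left out 1 replicate. The FAU call was lost without WT replicate 2 (log2 fold change 1.19) and the RHOB call without WT replicate 2, WT replicate 3 or K513R replicate 2 (1.84 to 2.11). The JUND and ENSG00000268713 calls were lost without any WT replicate or K513R replicate 2 (1.97 to 2.19 and 1.49 to 1.83), and the SEPHS2 call without any WT replicate or K513R replicate 1 (1.18 to 1.61) and with library-size scaling.

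The 8 largest called falls whose genotypes did not overlap lay away from the start, except in C19orf73, whose single peak spans the whole gene. PGBD4, derived from a piggyBac transposase, had the deepest (chr15:34104981-34105220, plus), with 0.57, 0.78 and 0.84 in WT and -1.46, -2.71 and -0.94 in K513R, a change of -3.69 ± 0.73 on the log2 scale (SE, edgeR adjusted p = 0.00244). It rests on a mean of 7 input counts. The neighbouring peak of the same exon (chr15:34103517-34103995) had 1.56, 1.53 and 1.66 against 1.01, 1.71 and 2.67 and was not called (log2 fold change 0.07). IRF2BPL, a RING finger protein related to IRF2BP1, had 2 falling peaks in the 3′ part of its exon (chr14:77025202-77025652 and chr14:77025712-77026071, minus). The first went from 0.99, 0.76 and 1.16 to -0.53, -1.01 and -0.67 (log2 fold change -1.87 ± 0.38, edgeR adjusted p = 0.00293) and the second fell by 2.61. In ADO, which codes for a thiol dioxygenase (chr10:62805376-62806182, plus), the values were 1.02, 0.88 and 1.00 against -0.46, -1.41 and -0.90 (log2 fold change -1.92 ± 0.29, edgeR adjusted p = 5.49e-04). A weak peak nearer to the start of ADO (chr10:62804809-62804959) had -0.04, 0.56 and -0.30 against 2.06, 1.15 and 0.47 and was not called (log2 fold change 1.75, mean of 3.17 input counts). FNDC10 (chr1:1598012-1598789, minus) fell by 2.79. ZNHIT2, a cofactor in the assembly of large protein complexes, had 2 overlapping peaks that share counts (chr11:65116403-65116728 and chr11:65116600-65116687, minus) and that fell by 1.68 and 1.87. TLNRD1 (chr15:81003161-81003311, plus) fell by 1.85 and C19orf73 (chr19:49118402-49119143, minus) by 1.81 on the log2 scale. The PGBD4, ADO and first IRF2BPL calls held in all 6 fits that left out 1 replicate. Both ZNHIT2 calls were lost without WT replicate 1 (-1.58 and -1.87), the FNDC10 call without WT replicate 2 or 3 or K513R replicate 2 (-2.56 to -2.29) and the second IRF2BPL call without WT replicate 1 or 3 or K513R replicate 2 (-2.57 to -2.36). The C19orf73 call was lost without any WT replicate or K513R replicate 3 (-1.93 to -1.49). The TLNRD1 call was lost in 5 of the 6 fits (-1.96 to -1.39; it held without K513R replicate 3), by DESeq2 and with either replicate block.

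**Figure D4:**
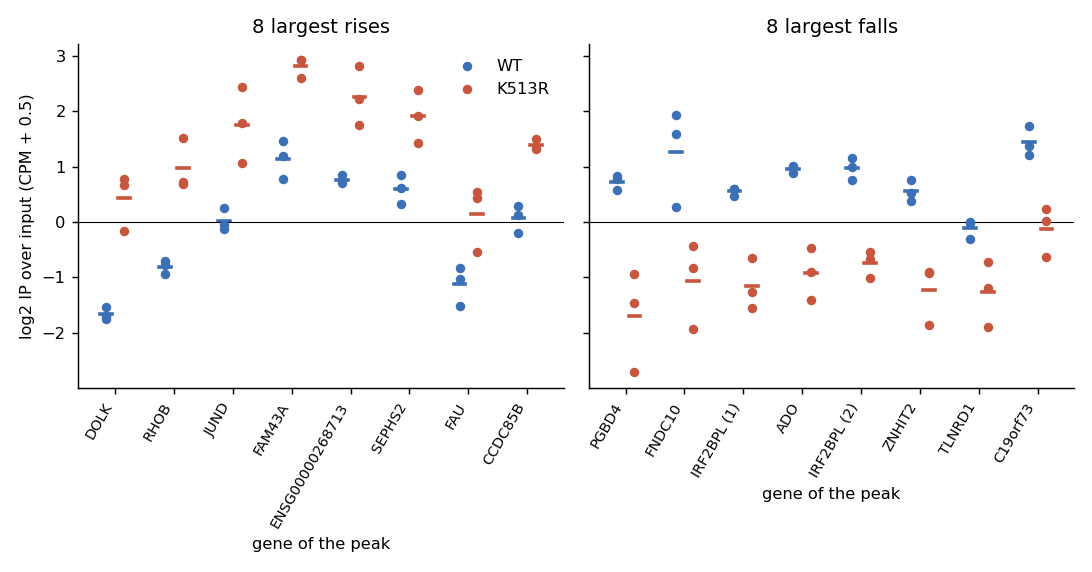
Log2 IP over input (y axis) in each pair of libraries for the 8 largest called rises (left) and the 8 largest called falls (right) by gene (x axis), WT in blue and K513R in red, with bars at the means of 3. In every peak shown the 3 K513R points lie on 1 side of the 3 WT points, which is how these peaks were chosen.

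Transcription factors and signalling genes are well-known classes of single-exon genes. Their 4 lists had 2 higher and 10 lower of 45 tested peaks, and the 2 higher ones lay at a start. This is 26.7% called, against 22.5% of all tested peaks. Of the tested peaks of the rule 10.8% were higher and 11.4% lower. Among the inducible factors, 8 of 8 single-exon genes of the list had a peak, and of 11 tested peaks 1 was higher and 3 lower. Their median log2 fold change was -0.67, against -0.05 over all tested peaks and -0.20 over those of the rule. The higher one is the JUND start peak. The lower ones are 2 overlapping JUND peaks (chr19:18279842-18280910 and chr19:18280518-18280870, -1.03 and -1.06) and IER5 (chr1:181089087-181090696, plus, -0.67). The IER5 call was lost without any WT replicate or K513R replicate 2 (-0.76 to -0.65) and when only non-overlapping peaks were fitted, and the JUND calls without WT replicate 1 (-1.01 for both). IER5L had -0.77 and -0.41 in its 2 tested peaks, which were not called. Among developmental factors, 9 of 28 single-exon genes had a peak, and 0 of 16 tested peaks were higher (0 at an unadjusted p under 0.05, 0 by DESeq2) and 3 were lower. They belong to SOX12, FOXC1 and FOXQ1. The third peak of SOX12, of the same family group as SOX4 (chr20:327888-328607, plus), went from 1.69, 1.6 and 1.42 in WT to -0.06, -0.01 and 0.18 in K513R, a change of -1.55 ± 0.22 (SE; edgeR adjusted p = 4.64e-04) that held in all 6 fits without 1 replicate. The larger first SOX12 peak had -0.36 and was not called. The main peaks of SOX4 (-0.30) and of PURB, a single-strand DNA-binding protein (-0.31), were not called either.

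Of the receptors, 8 of 22 single-exon genes had a peak, and 1 of 6 tested peaks was lower and 0 higher (0 at an unadjusted p under 0.05, 0 by DESeq2). That peak is in FZD1, a Wnt receptor (chr7:91267790-91268089, plus), with -0.22, -0.23 and -0.36 in WT and -1.27, -1.32 and -2.74 in K513R (log2 fold change -1.61). Its call was lost without any WT replicate or K513R replicate 3 (-1.66 to -1.14). FZD7, another Wnt receptor, had -0.01 in its best-covered peak, and P2RY1, a receptor for ADP, had 1.15 and -0.51 in its 2 peaks, with no call. Of the small GTPases and adaptors, 6 of 9 single-exon genes had a peak, with 1 higher and 3 lower of 12 tested. RHOB gave the higher one, described above, and 2 lower ones, and ARF6, a GTPase of the endocytic membrane, gave the third. The 2 lower RHOB peaks (chr2:20447523-20447763 and chr2:20448002-20448871) changed by -1.38 and -1.65. The first was not called without any WT replicate or K513R replicate 1 (-1.61 to -1.10), and the second held in all 6 fits. In ARF6 (chr14:49893737-49894573, plus) the values went from 1.39, 1.43 and 1.41 to 0.47, 0.68 and 0.68, a change of -0.81 that was not called without WT replicate 1 or 3 (-0.82 and -0.81). The ARF6 start peak moved from 0.05, -0.16 and -0.16 to 0.52, 1.01 and 1.21 without a call (log2 fold change 1.03, edgeR adjusted p = 0.0594). RAP2B, a Ras-like GTPase, had -0.04 and 0.18 in its tested peaks, with no call. Among zinc finger, BTB and ubiquitin ligase genes 5 of 7 had a peak, and 0 of 9 tested peaks were called (1 lower at an unadjusted p under 0.05, 0 by DESeq2). They include KBTBD6 and KBTBD7, adaptors of the CUL3 ligase, and RNF113A, a RING finger protein of the spliceosome. Heat shock genes had 4 peaks in HSPA6, HSPB9 and DNAJC30, of which 1 was tested and not called (-0.69 in DNAJC30). Of 27 single-exon interferon genes, IFNE, an interferon of epithelia, had 3 peaks, 2 of them tested and not called (0 at an unadjusted p under 0.05, 0 by DESeq2). None of the 22 single-exon protocadherin genes had a peak.

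Histone genes showed 3 higher and 0 lower peaks of 10 tested, beside 12.9% higher and 9.58% lower of all tested peaks (median log2 fold change 0.48; lower 0 at an unadjusted p under 0.05 and 0 by DESeq2, which called 4 higher). H1-5, a linker histone (chr6:27867057-27867234, minus), had the most input counts of the list and stood at -1.73, -1.77 and -1.69 in WT and -0.59, -1.0 and -1.25 in K513R. This was a rise of 0.79 ± 0.19 (SE; edgeR adjusted p = 0.00677), lost without WT replicate 1 (0.79). It stayed below the usual enrichment in both genotypes. The start peak of H1-2 (chr6:26056412-26056470, minus), which is 59 bases wide, went from 0.47, 0.14 and -0.11 to 0.91, 1.61 and 1.21 (log2 fold change 1.2, edgeR adjusted p = 0.0292). H4C5, a core histone, had 0.29, not called.

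The 18 peaks of 15 mitochondrially encoded genes gave 0 calls (1 higher and 0 lower at an unadjusted p under 0.05, 0 by DESeq2), with a median log2 fold change of 0.07 that was -0.17 with library-size scaling. MT-ATP6 had 0.58, 0.72 and 0.60 in WT and 1.06, 1.43 and 1.56 in K513R (log2 fold change 0.64 ± 0.36, edgeR adjusted p = 0.210), so the values did not overlap but the fit did not call them. MT-ND4 had 0.11, and the 3 peaks of MT-ND5 had -0.03, -0.18 and -0.28. Their share of the counts in the non-overlapping peaks of the rule was 5.83% to 7.69% in inputs and 8.77% to 12.9% in IP libraries. Small RNA genes had 4 higher and 0 lower of 6 tested peaks (lower 0 at an unadjusted p under 0.05, 0 by DESeq2), all 4 of them with weak enrichment in WT. The peaks of RNU2-2P, MIR639 and SCARNA11 came from the K513R list, where a peak was kept only if no WT peak was called. Weak WT enrichment and a rise in these 3 are thus partly fixed by the choice. In RNU2-2P, a gene of the U2 spliceosomal RNA that lies wholly within WDR74 exons on the same strand (chr11:62841659-62841809, minus), the values went from -1.09, -1.28 and -1.43 to -0.27, -0.27 and 0.03 (log2 fold change 1.11, edgeR adjusted p = 0.00494), in all 6 fits without 1 replicate. MIR639 (0.93) lies in TECR and opposite DNAJB1, and the peaks of SCARNA11 (0.59) and MIR378J reach far beyond the gene, so their RNA is uncertain. MIR639 was not called without any WT replicate (0.86 to 1.03) and SCARNA11 without any WT replicate or K513R replicate 2 (0.57 to 0.60). Pseudogenes had 0 calls among 7 tested peaks (2 higher and 1 lower at an unadjusted p under 0.05, 0 by DESeq2). HNRNPCP1 (0.47) lies within KIAA0586 exons, IPO8P1 (0.75) shares 64.9% of its exon with KCNH1 and the RHOQP1 peak (-0.01) has 34.4% of its length in the exon, so these may be peaks of the genes around them.

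TUG1, best known as a long noncoding RNA, had the most peaks of the 329 genes, 10 over 10151 merged exonic bases, all 10 tested. Their log2 fold changes ranged from -2.07 to 0.14 with 0 calls (edgeR; lowest adjusted p = 0.0509). Its most enriched peak (chr22:30978018-30978437, plus) had 2.29, 1.43 and 1.70 in WT and 0.08, 0.83 and 0.63 in K513R but a mean of only 3.67 input counts. The RTL5 peaks, in a Gag-like gene, come as 4 pairs of overlapping intervals, so its 8 peaks are 4 places. FEM1A, the substrate receptor of a CUL2 ligase, had 8 peaks, 4 of them tested with -0.25 to -1.05 and no call. PURB, ITPRIPL2 and PIGM, a mannosyltransferase of the GPI anchor, had 6 peaks each. In PURB 1 peak of 1770 bases (chr7:44882982-44884751, minus) had a mean of 442 input counts, with 1.06, 1.16 and 1.27 in WT and 1.07, 0.93 and 0.55 in K513R.

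RNA levels of the same genes were compared in the inputs and in RNA-seq. In the inputs, summed over peaks, 59 of 217 tested genes were higher in K513R and 22 lower (edgeR; 24.6% called among all 7302 genes with a peak, 12.4% higher and 12.2% lower). The higher calls gathered in intronless coding genes, with 43 higher and 2 lower of 113 (median log2 fold change 0.43, against 0.02 for all genes). The bridged coding genes had 11 higher and 9 lower of 56. SOX12 stood at 123, 129 and 127 CPM in the WT inputs and 211, 227 and 218 CPM in K513R (log2 fold change 0.79 ± 0.10, edgeR adjusted p = 8.52e-05). HEXIM1 had 175, 183 and 170 CPM against 290, 321 and 278 CPM (0.75 ± 0.10, edgeR adjusted p = 1.10e-04). ADO rose by 1.15 and ZNHIT2 by 1.18 on the log2 scale, while CCDC85B fell by 0.81, and these 5 calls held without each replicate in turn. In SOX12, ADO and ZNHIT2 the input level was higher and the enrichment of a peak lower. Whether the input level has a part in the enrichment values was not tested. Without WT replicate 2 the counts over all 217 genes were 37 higher and 10 lower, and without K513R replicate 2 the lower ones were 14.

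In RNA-seq, 154 of 323 tested genes were higher and 93 lower, where 78.3% of all 30377 genes were called (41.5% higher and 36.9% lower). The median log2 fold change was 0.37, against 0.13 for all genes, and both rose with upper-quartile factors, to 0.63 and 0.39. Intronless coding genes again leaned higher, with 99 higher and 35 lower of 179. HEXIM1 went from 65.5, 65.5 and 75.1 CPM to 488, 447 and 509 CPM. Mitochondrial genes had 14 of 15 lower and 0 higher (0 at an unadjusted p under 0.05, 0 by DESeq2; median -4.63) and histone genes 8 of 9 lower (median -3.58). In the inputs the corresponding medians were -0.14, with 2 higher and 3 lower of 13, and -0.55, with 1 higher and 4 lower of 8. H1-5 illustrates the gap between the assays, with 1041, 1350 and 1699 CPM in WT and 20.4, 23.5 and 22.9 CPM in K513R RNA-seq, but 4668, 4433 and 4785 CPM against 2860, 3064 and 3178 CPM in the inputs. MT-ND5 was lower in RNA-seq (-4.63) and higher in the inputs (0.51, lost without K513R replicate 2, 0.44). All counts of single-exon genes with a peak together made up 4.58% to 5.83% of the WT and 1.52% to 1.58% of the K513R RNA-seq libraries. Of 215 genes tested in both assays, 44 were higher in both, 10 lower in both, 12 higher in the inputs and lower in RNA-seq, and 5 the reverse. The assays differ in RNA selection and come from different libraries, and which of these accounts for the gap was not tested.

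**Figure D5:**
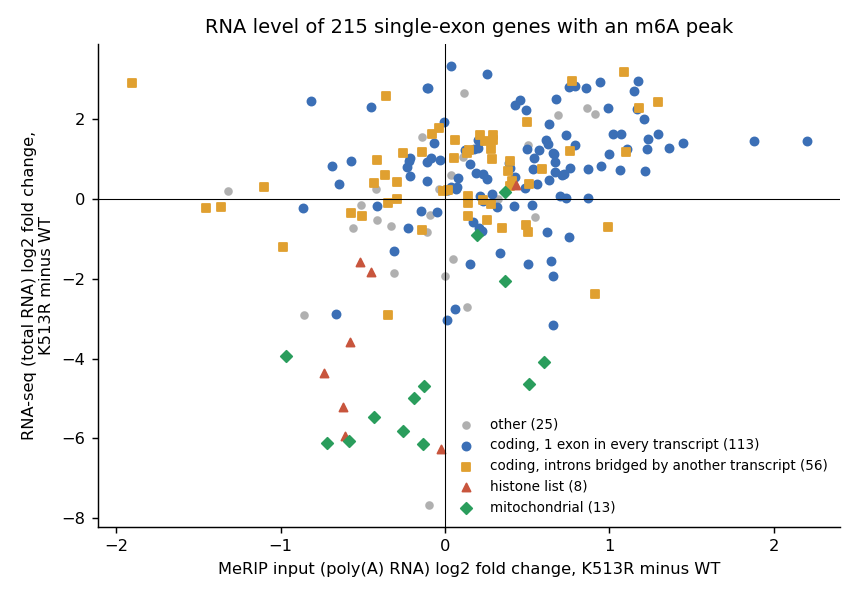
Log2 fold change, K513R minus WT, in RNA-seq of total RNA (y axis) against that in the MeRIP inputs of poly(A) RNA (x axis) for 215 single-exon genes with an m6A peak, coloured by kind. Mitochondrial (green) and histone (red) genes lie mostly far below 0 in RNA-seq, with medians of -4.63 and -3.58, and closer to 0 in the inputs, with medians of -0.14 and -0.55, and 113 intronless coding genes (blue) lie mostly to the right of 0.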

How the data were processed

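MeRIP-seq and RNA-seq libraries of LoVo cells, 18 in 6 groups of 3, were grouped by their labels. The authors deposited raw counts per peak and per gene. Per the file headers, each peak also carries a fold enrichment, a ratio set by the authors' peak calling. Per the submitters' processing notes, GRCh38, edgeR 3.12.1, deepTools, bedtools, Trimmomatic 0.36 and Subread 1.5.1 with featureCounts were used. The sources used here do not give the aligner, the peak caller, or whether counting used strand and molecular identifiers. Deposited peak starts count from 0 (2095 peaks start 1 base before an exon, 191 at it) and are printed counting from 1. The members and gene lists were chosen with earlier results of these data known.

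Counts were tested with edgeR 4.0.16 (quasi-likelihood, filterByExpr, TMM factors, two-sided, Benjamini-Hochberg adjusted p under 0.05) on whole tables: peaks by the interaction of genotype and IP, input counts added up for each gene from peaks that do not overlap, and RNA-seq counts by genotype. DESeq2 1.42.0 was an alternative. Scripts were tested on simulated data. A start peak begins at most 10 bases after a RefSeq start and covers it. Named genes are the 3 with the most input counts of each list, the 6 with most peaks, the 6 strongest WT peaks, and the 8 largest rises and falls among called peaks whose genotypes do not overlap. H1-2, PCBP1, FOXC1, FOXQ1, MIR378J, ENSG00000238390, SETSIP, OR2W3, HDDC3 and the genes compared or listed at starts were named after their values were seen. Input and IP libraries were paired by number, since the protocol splits 1 fragmented RNA. A few items are not reported here.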

Additional observations from a re-analysis of the deposited data

How the results depend on the processing

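The split of peaks by RefSeq start and the restriction to genes with 1 exon in every transcript were chosen after seeing the data. With scaling to library size only, 18 peaks were higher and 105 lower, against 34 and 69, and away from starts 8 were higher and 100 lower, against 19 and 65. With a mean of at least 50 input counts 22 peaks were higher, 7 of them at starts, against 15. Only 4 peaks were higher among those with a deposited fold enrichment of at least the median, and 21 higher and 42 lower in genes with 1 exon in every transcript. Leaving out 1 replicate gave 11 to 45 higher and 22 to 82 lower peaks. At starts it gave 8 to 20 higher and 1 to 5 lower, and elsewhere 3 to 25 higher and 21 to 77 lower. For genes it gave 37 to 62 higher and 10 to 26 lower in the inputs, and 142 to 153 higher and 90 to 94 lower in RNA-seq. It gave 0.31 to 0.36 for the enrichment difference (exact paired permutation test, p = 0.0625 in all 6 cases, the smallest that 5 pairs allow), -0.20 to -0.10 for its difference between genotypes and 0.69 to 0.85 for the start difference. Libraries of the same number in the 2 genotypes did not deviate together (correlations -0.16 to 0.09), and the correlation of input with IP was 0.04 to 0.19. With the replicate block by number, 33 peaks were higher and 67 lower. With input and IP paired as a block, 49 were higher and 88 lower, and 33 of the higher ones lay away from starts. The other replicate block fits moved no count by over 1.5 times. The other counts stayed within 1.5 times under RLE factors, DESeq2, no low-count filter and non-overlapping peaks only. No named call reversed its direction. Low counts limit single peaks: 228 of the 650 were too low to test.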
